A study of Mus musculus with 6 samples.

Results

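The genes of the bone morphogenetic protein (BMP) and transforming growth factor beta (TGF-beta) pathways were examined in pRb-deficient and pRb-expressing mouse osteoblasts. They were taken from a list of 47 genes drawn up by role, namely ligands, receptors, Smads, secreted antagonists and latency proteins. Of these, 44 had a probe set (a group of short array probes for 1 transcript) with a single gene symbol, out of 18193 genes on the array. Bmp3, Gdf6 and Gdf15 were not analysed here. Each gene was represented by its brightest probe set, that is, the one with the greatest mean over the 6 arrays. Gdf5 and Gdf10 were at or below a signal of 32 on all arrays, and 42 genes were therefore tested.

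RNA from 3 pRb-deficient cultures, labelled Rb Knockout, and 3 pRb-expressing cultures, labelled Wild type, was measured with 1 Affymetrix Mouse Genome array per culture. Both kinds were MC3T3 cells, that is, osteoblasts isolated from the calvariae (skull bones) of mice at embryonic day 18.5 and immortalized by serial passage under the 3T3 protocol. Mice with the floxed flox19-RB1 allele, kept in a C57BL/6 background, were combined with a Col1a1-Cre transgene, which is expressed in cells of the osteoblast lineage. Animals carrying both were crossed with each other, and their offspring gave the animals lacking pRb and the control littermates. The labels name the 2.3- and 3.6-Col1a1-Cre lines, but which of them gave these cells is not given in the sources used here, nor whether the control cells carry a Cre transgene. The replicates are called biological, but no source states that they came from separate animals. The p-values below therefore reflect the spread among these 6 cultures alone, possibly a technical one, and line of origin and pRb status cannot be told apart.

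BMPs, activins and TGF-betas are secreted dimers that bring type I and type II receptor kinases together at the cell surface. The type I receptors phosphorylate receptor Smads, Smad1, Smad5 and Smad9 for BMPs and Smad2 and Smad3 for activins and TGF-betas, which enter the nucleus with Smad4. Antagonists such as gremlin, chordin and follistatin bind the ligands outside the cell, and latent TGF-beta binding proteins tether TGF-beta to the matrix in an inactive form. In bone, BMPs drive osteoblast differentiation, and TGF-beta couples bone formation to resorption.

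Signals are MAS5 intensities, which were floored at 32 and log2 transformed. Fold changes divide the pRb-deficient by the pRb-expressing level and come with standard errors (SE) and p-values from limma adjusted over all probe sets tested, n = 3 cultures per group, and a gene was called altered at an adjusted p under 0.05. The Rb1 signal, 131 ± 10.4 in pRb-deficient and 1116 ± 9.17 in pRb-expressing cultures (SD), followed the labels. The position of its probes with respect to the deleted exon was not looked up. Array medians lay between 108 and 119.9, and correlations of arrays were 0.974 to 0.984 within groups and 0.912 to 0.917 between them. Of 13 osteoblast markers listed, 9 were tested, and Runx2, Bglap, Bglap2 and Spp1 were not analysed here. In pRb-deficient cultures, 8 of these 9 markers (88.9%) were lower, against 23.4% of all genes, and 1 (Phex) was higher. Their summed signal was 35916 to 48321 on pRb-deficient arrays and 67598 to 76896 on pRb-expressing arrays. Ibsp and Dmp1, which mark mature osteoblasts and osteocytes, were at 0.5 to 9.2 and 2.1 to 11.9 in pRb-deficient cultures, at or near 0, so the labelled cell type lacks these markers there. Mesothelial markers summed to 3061 to 3726 on pRb-deficient and 736 to 836 on pRb-expressing arrays (3 of 10 higher, 2 lower). Smooth muscle and pericyte markers summed to 28960 to 34553 on pRb-deficient and 23948 to 26650 on pRb-expressing arrays (3 of 9 higher, 1 lower). Macrophage and osteoclast markers summed to 2070 to 2182 on pRb-deficient and 6144 to 6458 on pRb-expressing arrays (2 of 10 higher, 2 lower). Chondrocyte markers summed to 2069 to 2969 on pRb-deficient and 3657 to 4543 on pRb-expressing arrays (1 of 10 higher, 4 lower). Neural and Schwann markers summed to 330 to 424 on pRb-deficient and 2257 to 2451 on pRb-expressing arrays (3 of 4 lower). On all arrays Aif1 (macrophages), Tie1 (endothelium), Myh11 (smooth muscle) and Col10a1 (cartilage) were at or below 32, and 5 of 11 macrophage and osteoclast, 5 of 8 endothelial and 6 of 10 mesothelial markers were at or below 100. Other genes of these lists had high signals, among them Acta2 (means of 16564 in pRb-deficient and 19601 in pRb-expressing cultures), Tagln (9936 in pRb-deficient and 5028 in pRb-expressing), Sox9 (651 in pRb-deficient and 1205 in pRb-expressing) and Ctsk (151 in pRb-deficient and 3580 in pRb-expressing). Some genes of these lists differed widely between the groups. Some sums rest largely on such genes, as on Msln and Bnc1 in pRb-deficient cultures and S100b, Ctsk and Lyz2 in pRb-expressing cultures. Higher in pRb-deficient cultures were Cnn1 (smooth muscle, 2495 against 12.1), Msln and Bnc1 (mesothelium, 1551 against 19.5 and 1271 against 17.8) and Cd14 (macrophages, 984 against 268). Lower there were S100b (neural and Schwann, 26 against 1613) and Lyz2 (macrophages, 113 against 1612). Of the endothelial, adipocyte, tendon and epithelial markers, 1 of 7, 1 of 5, 2 of 5 and 1 of 5 passed the test. Xist, expressed from the inactive X chromosome of females, was high in pRb-deficient cultures and the Y-linked Eif2s3y, Kdm5d and Uty were high in pRb-expressing cultures, so that sex of origin goes with pRb status as well. The part of these differences in the results below was not tested.

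Among the pathway genes, several genes of secreted proteins differed by more than 10-fold. In pRb-deficient cultures, the antagonist genes Chrdl1 and Fst were lower, by 51.7-fold and 10.8-fold, and Grem1 was higher by 28.1-fold. The ligand subunit gene Inhbb was higher by 25.8-fold and Bmp2 by at least 14.2-fold, and the matrix protein gene Ltbp2 by 15.2-fold. These folds are those of the brightest probe sets. Dimmer probe sets of Inhbb (2.77-fold) and Chrdl1 (36.2-fold, 9.9-fold and at least 5.63-fold) changed less. Of the 42 genes tested, 24 (57.1%) were altered, against 41.9% of all 16308 genes tested. The list was chosen with earlier results of these data known. The shares given here and by role below are therefore descriptions and no test of the pathways. Without pRb, 16 of the 42 (38.1%) were higher and 8 (19.0%) lower, where 18.5% of all genes were higher and 23.4% lower. A change of at least 2-fold was found for 16 altered members (38.1%), against 15.6% of all genes. The groups did not overlap for 27 members (64.3%), against 53.8% of all genes. The median log2 fold change was 0.1 over the members and −0.09 over all genes, and the median size of the change without its sign was 0.68 over the members and 0.39 over all genes. In cultured cells, a lower share of cells expressing a gene and less RNA per cell cannot be told apart on these arrays.

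**Figure D1:**
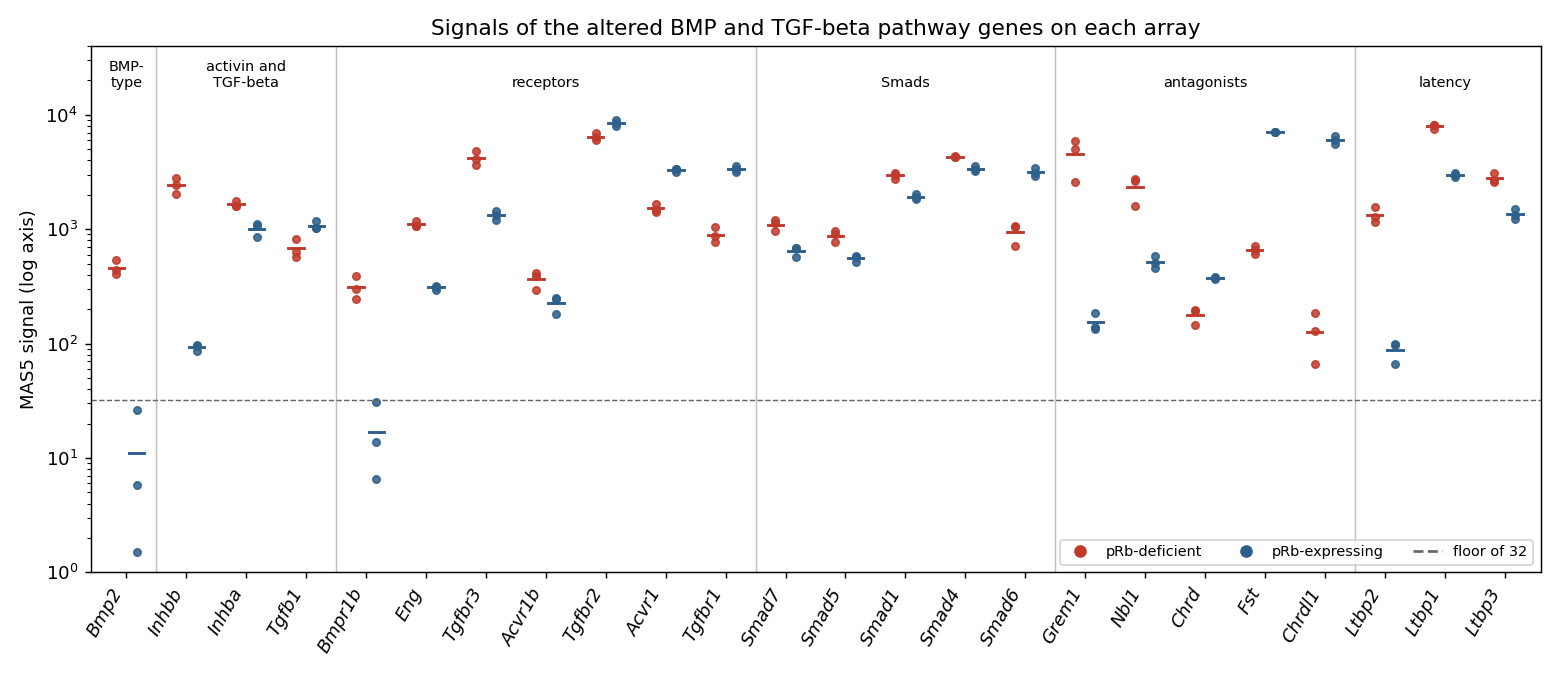
MAS5 signal on a logarithmic axis for each of the 24 altered genes, grouped by role, with 1 point per array for pRb-deficient and pRb-expressing cultures; the dashed line is the floor of 32. The pRb-deficient and pRb-expressing points are apart for every gene drawn, and the pRb-expressing points of Bmp2 and Bmpr1b lie below the floor.

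Promoter sequences are shown for the members with the largest rises and falls for which the RefSeq table (build GRCm38.p6) held an entry, to set the regulatory sequence beside the changes. Chrdl1 and Fst are named only. Each sequence is the 250 bases before the annotated start site, read on the strand of the gene, 5′ to 3′. Capitals mark matches to the motifs searched, GGCGCC (a GC-rich Smad site) in Grem1 and Tgfbr1 and GCGAAAAA, a match to the reverse complement of TTTNNCGC (an E2F site), in Ltbp2. The windows are chr2:113758649-113758898 on the minus strand for Grem1, chr1:119422249-119422498 on the minus strand for Inhbb, chr12:84876492-84876741 on the minus strand for Ltbp2, and chr4:47352972-47353221 on the plus strand for Tgfbr1, the first of 2 start sites of that gene.
Grem1: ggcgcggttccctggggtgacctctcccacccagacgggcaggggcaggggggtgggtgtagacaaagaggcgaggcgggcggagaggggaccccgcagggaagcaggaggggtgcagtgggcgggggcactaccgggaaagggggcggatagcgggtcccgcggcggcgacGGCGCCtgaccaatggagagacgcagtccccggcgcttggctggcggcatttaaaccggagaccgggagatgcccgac
Inhbb: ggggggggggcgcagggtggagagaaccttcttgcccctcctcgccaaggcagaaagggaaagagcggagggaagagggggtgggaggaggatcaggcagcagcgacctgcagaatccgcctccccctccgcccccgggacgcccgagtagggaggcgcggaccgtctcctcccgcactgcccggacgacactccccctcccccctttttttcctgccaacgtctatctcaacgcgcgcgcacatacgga
Ltbp2: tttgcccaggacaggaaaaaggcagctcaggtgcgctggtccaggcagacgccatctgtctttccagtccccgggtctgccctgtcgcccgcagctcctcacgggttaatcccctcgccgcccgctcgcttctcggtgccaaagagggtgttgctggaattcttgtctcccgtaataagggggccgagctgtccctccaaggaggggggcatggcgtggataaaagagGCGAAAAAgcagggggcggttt
Tgfbr1: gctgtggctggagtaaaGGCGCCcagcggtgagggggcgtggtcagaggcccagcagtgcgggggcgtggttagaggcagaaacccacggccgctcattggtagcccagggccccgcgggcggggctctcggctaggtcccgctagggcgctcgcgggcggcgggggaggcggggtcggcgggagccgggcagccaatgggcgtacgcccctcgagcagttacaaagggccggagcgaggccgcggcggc
The matches began 78 bases before the start site in Grem1, 22 bases before it in Ltbp2 and 233 bases before it in Tgfbr1. The 4 windows are rich in G and C, at 72.0% for Grem1, 68.0% for Inhbb, 61.6% for Ltbp2 and 74.8% for Tgfbr1. Motifs were searched on both strands in the 31 members with an entry, 18 of them altered. GGCGCC was present in 7 of the 31 and in 9.59% of all 32817 windows of the same length, and among altered members in Grem1, Tgfbr1, Nbl1 and Chrd. TTTNNCGC was present in 4 of the 31 and in 4.28% of all windows, and among altered members in Eng, Ltbp2 and Smad5. TATAAA was present in 4 of the 31 and in 12.4% of all windows. The palindromic Smad binding element GTCTAGAC was in no member window and in 0.168% of all windows. A match describes letters in these windows and is no measurement of binding.

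Among the BMP-type ligand genes, 1 of 6 tested (16.7%) was altered, against 41.9% of all genes. Bmp2 encodes a potent inducer of osteoblast differentiation. Its signal was 405, 535 and 437 in pRb-deficient cultures, against 26.1, 1.5 and 5.8 in pRb-expressing cultures. All pRb-expressing arrays lay below the floor, and the fitted log2 fold change of 3.83 (SE 0.18, adjusted p = 1.77e-05), at least 14.2-fold, is set by that floor. Bmp4, another BMP of bone, was at 2699, 2337 and 1584 in pRb-deficient and 3288, 3136 and 2965 in pRb-expressing cultures. These values did not overlap, but the log2 fold change of −0.54 did not pass the test (95% interval −0.98 to −0.1, adjusted p = 0.0639). Bmp4 passed without pRb-deficient replicate 1 (−0.7) or replicate 3 (−0.32), but not without any other array (adjusted p = 0.104 to 0.16). Bmp7 had 122, 125 and 31.3 in pRb-deficient and 47.7, 40.5 and 25.2 in pRb-expressing cultures, with pRb-deficient replicate 3 far below the other pRb-deficient arrays. The log2 fold change of 1.0 did not pass (interval −0.26 to 2.25, adjusted p = 0.202). Without that array the log2 fold change was 1.65 and passed (adjusted p = 0.00303), but Bmp7 passed under only 2 of 15 alternative settings. Its other tested probe set, near or below the floor on all arrays, had a log2 fold change of 0.06 (adjusted p = 0.698). Bmp5 and Bmp6 stayed below 76 on every array. Gdf11, which acts through the activin branch, had a log2 fold change of 0.07 with an interval of −0.46 to 0.59.

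Of the 5 activin and TGF-beta ligand genes, 2 (40%) were higher without pRb and 1 (20%) was lower, against 18.5% and 23.4% of all genes. Inhbb encodes the beta B subunit of activin B and inhibin B. It had a signal of 2433, 2781 and 2039 in pRb-deficient and 96.6, 86.1 and 96.1 in pRb-expressing cultures. The log2 fold change was 4.69 (SE 0.13, adjusted p = 2.79e-06), with every pRb-deficient array far above every pRb-expressing array. The dimmer probe set of Inhbb changed less, with 711 ± 55.8 in pRb-deficient and 259 ± 49.0 in pRb-expressing cultures, a log2 fold change of 1.47. Inhba, which encodes the beta A subunit of activin A, was at 1587, 1759.7 and 1608 in pRb-deficient and 1062, 851 and 1108 in pRb-expressing cultures (log2 fold change 0.72, SE 0.11, adjusted p = 0.00258). Inhba and Inhbb were thus both higher, without overlap of the groups. The other activin subunit genes Inhbc (−0.41) and Inhbe (−0.47), which are not members, did not pass. Tgfb1, the main TGF-beta of bone matrix, was lower, at 828, 635 and 575 in pRb-deficient and 1017, 1176 and 1024 in pRb-expressing cultures (log2 fold change −0.67, SE 0.15, adjusted p = 0.0108). Its second probe set, with a log2 fold change of −0.22, did not pass. Tgfb2 was at 631, 458 and 280.4 in pRb-deficient and 907, 828 and 655 in pRb-expressing cultures. The groups did not overlap, but the log2 fold change of −0.87 did not pass (adjusted p = 0.0569), while 1 of its 3 other probe sets was lower (−1.06). Without pRb-deficient replicate 1, Tgfb2 passed (−1.14, adjusted p = 0.0135), but not without any other array (adjusted p = 0.0725 to 0.157). Tgfb3 had a log2 fold change of 0.28 (interval −0.01 to 0.57, adjusted p = 0.123). It passed without pRb-deficient replicate 3 (0.4, adjusted p = 0.0152), but not without any other array (adjusted p = 0.157 to 0.303).

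Of the 12 receptor genes, 4 (33.3%) were higher and 3 (25%) were lower in cultures lacking pRb, where 18.5% and 23.4% of all genes were. The share of lower receptor genes was thus close to that of all genes. The BMP type I receptor gene Bmpr1b was at 298, 244 and 387 in pRb-deficient cultures and below the floor, at 6.5, 30.8 and 13.8, in pRb-expressing cultures. Its log2 fold change was 3.25 (SE 0.22, adjusted p = 6.89e-05), at least 9.51-fold. Of its other probe sets, 1 was higher by 1.23 on the log2 scale and 1, at 0.57, did not pass. Acvr1, the type I receptor of several BMPs also known as ALK2, was lower at 1646, 1483 and 1425 in pRb-deficient and 3362, 3166 and 3342 in pRb-expressing cultures (log2 fold change −1.12, SE 0.08, adjusted p = 6.69e-05). Of the 2 other probe sets of Acvr1, 1 was lower (−1.5) and 1, at −0.17, did not pass. Bmpr1a, a type I receptor for BMP2 and BMP4, had probe sets that did not agree. The brightest had 2396, 2354 and 2230.4 in pRb-deficient and 2517, 2337 and 2595 in pRb-expressing cultures and did not pass (−0.09, adjusted p = 0.355). Of 5 probe sets tested for Bmpr1a, 3 dimmer ones were lower, by log2 fold changes of −0.54, −0.95 and −0.64, and 1 at 0.15 did not pass.

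Tgfbr1 and Tgfbr2, which encode the TGF-beta receptor kinases, were lower, whereas the accessory receptor genes Tgfbr3 and Eng were higher. Tgfbr1, the type I receptor, had 1042, 773 and 864 in pRb-deficient and 3390.2, 3182 and 3551 in pRb-expressing cultures. The lowest pRb-expressing signal was above the highest pRb-deficient signal, and the log2 fold change was −1.93 (SE 0.12, adjusted p = 4.35e-05). Both other probe sets of Tgfbr1 were lower too, at −2.36 and −1.4. The type II receptor gene Tgfbr2 changed less, with 5976, 6921 and 6386 in pRb-deficient and 9057, 7907 and 8396 in pRb-expressing cultures (log2 fold change −0.4, SE 0.08, adjusted p = 0.0102). After centring of the arrays on their medians, Tgfbr2 did not pass (adjusted p = 0.0568). Of the other probe sets of Tgfbr2, 1 was lower (−0.43) and 1, near or below the floor on all arrays, did not pass (0.11). The co-receptor gene Tgfbr3, which encodes betaglycan, was at 3613, 4788 and 4075 in pRb-deficient and 1441, 1330.3 and 1199 in pRb-expressing cultures (log2 fold change 1.65, SE 0.12, adjusted p = 9.11e-05). Eng encodes endoglin, an accessory receptor known from endothelial and mesenchymal cells. Its signals were 1182, 1066 and 1066 in pRb-deficient and 322, 313 and 296 in pRb-expressing cultures, and the log2 fold change was 1.83 (SE 0.09, adjusted p = 1.76e-05). Second probe sets of Tgfbr3 (1.33) and Eng (2.37) were also higher. The summed endothelial markers were 737 to 822 on pRb-deficient and 631 to 790 on pRb-expressing arrays. Of 7 tested, 1 passed, Egfl7, which was higher (271 in pRb-deficient against 152 in pRb-expressing cultures, adjusted p = 0.0145). The part of endothelial cells in the change of Eng was not tested. The activin type I receptor gene Acvr1b, at 388, 414 and 291 in pRb-deficient and 250.3, 181 and 244 in pRb-expressing cultures, was higher (log2 fold change 0.69, SE 0.2, adjusted p = 0.0322), but its other probe set was at 0.09 and did not pass, and the call was lost when any array other than pRb-deficient replicate 3 was left out (adjusted p = 0.0518 to 0.113). The type II receptor genes Bmpr2, Acvr2a and Acvr2b and the endothelial type I receptor gene Acvrl1 did not pass, with log2 fold changes between −0.39 and −0.17. Bmpr2 passed without pRb-deficient replicate 1 (−0.48) or pRb-expressing replicate 2 (−0.5), but not without any other array (adjusted p = 0.134 to 0.201).

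**Figure D2:**
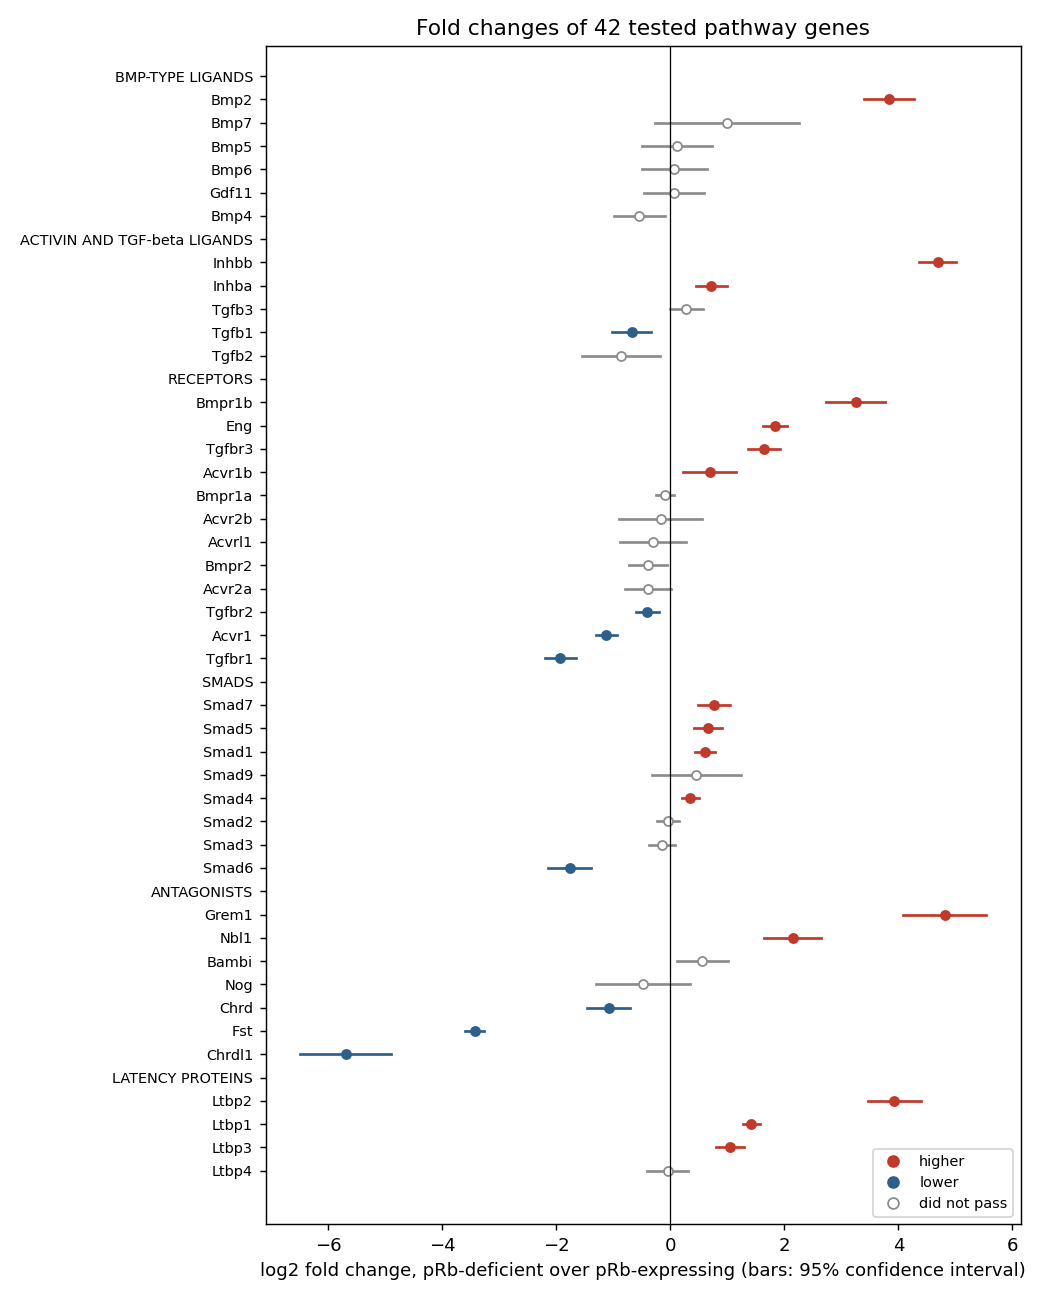
Log2 fold change, pRb-deficient over pRb-expressing, of the 42 genes tested, grouped by role, with 95% confidence intervals as bars; filled points passed the test and open points did not. The widest spread is among the antagonists, between −5.69 for Chrdl1 and 4.81 for Grem1, while the Smads lie between −1.76 and 0.76.

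Among the 8 Smad genes, 4 (50%) were higher and 1 (12.5%) was lower when pRb was lacking, against 18.5% and 23.4% of all genes. Of the BMP receptor Smads, Smad1 and Smad5 were higher. Smad1 had 3113, 2978 and 2767 in pRb-deficient and 2029, 1831 and 1925 in pRb-expressing cultures (log2 fold change 0.61, SE 0.07, adjusted p = 0.000782). Of the other probe sets of Smad1, 1 was higher (0.7) and 1, at 0.61, did not pass (adjusted p = 0.0713). Smad5 had 959, 899.5 and 781 in pRb-deficient and 574, 579 and 518 in pRb-expressing cultures (log2 fold change 0.66, SE 0.1, adjusted p = 0.00272). Neither gene had overlapping groups. Smad9, the remaining BMP receptor Smad, was low on all arrays, between 28.8 and 87.4, and did not pass (adjusted p = 0.339). The TGF-beta receptor Smads did not pass. The interval of the log2 fold change was −0.24 to 0.16 for Smad2 and −0.37 to 0.09 for Smad3. The common Smad gene Smad4 was higher by a small amount, at 4242, 4301 and 4340 in pRb-deficient and 3534, 3217 and 3346 in pRb-expressing cultures (log2 fold change 0.35, SE 0.06, adjusted p = 0.00423). The inhibitory Smads went in opposite directions. Smad6, which acts mainly on BMP receptors, was at 1064, 1037 and 718 in pRb-deficient and 3128, 3404 and 2901 in pRb-expressing cultures (log2 fold change −1.76, SE 0.16, adjusted p = 0.000222). Smad7, which acts on both branches, was at 1194, 1141 and 958 in pRb-deficient and 686, 685 and 572 in pRb-expressing cultures (log2 fold change 0.76, SE 0.12, adjusted p = 0.00254). A second probe set of Smad7 at 0.79 did not pass.

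The antagonists had the widest changes, with a median size of change of 2.15 on the log2 scale. Of 7 tested, 5 (71.4%) were altered, all 5 by at least 2-fold, against 41.9% and 15.6% of all genes. Chrdl1 encodes chordin-like 1, a secreted BMP antagonist. Its signal was 184, 129.7 and 66.6 in pRb-deficient cultures, against 6035, 5600.0 and 6492 in pRb-expressing cultures. The log2 fold change was −5.69 (SE 0.34, adjusted p = 3.99e-05), and the 3 other probe sets of the gene were lower as well, at −5.18, −3.31 and −2.49. Chrdl1 lies on the X chromosome, on which the median log2 fold change of the other genes tested was 0.03. A median does not speak to a single gene, and the part of sex of origin in the change of Chrdl1 was not tested. Fst, which encodes the activin antagonist follistatin, was at 656, 611 and 706 in pRb-deficient and 7127, 7016 and 7076 in pRb-expressing cultures. This gene had tight replicates in both groups (log2 fold change −3.43, SE 0.07, adjusted p = 1.44e-06), and its second probe set changed by −3.39. Chrd, which encodes chordin, was lower at 193, 196 and 144 in pRb-deficient and 368, 373 and 379 in pRb-expressing cultures (log2 fold change −1.08, SE 0.16, adjusted p = 0.00192).

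The remaining altered antagonists were higher in pRb-deficient cultures. Grem1 encodes gremlin 1, which binds BMP2, BMP4 and BMP7. It was at 5923, 5057 and 2569.9 in pRb-deficient and 184, 136 and 139 in pRb-expressing cultures. The lowest pRb-deficient signal, that of replicate 3, was still far above the highest pRb-expressing one (log2 fold change 4.81, SE 0.31, adjusted p = 5.54e-05), and without that array the log2 fold change was 5.17. Nbl1, which encodes the BMP antagonist DAN, had 2759, 2620.1 and 1612 in pRb-deficient and 578, 507 and 454 in pRb-expressing cultures (log2 fold change 2.15, SE 0.21, adjusted p = 0.000334). Nog, which encodes noggin, stayed below 77 on every array and did not pass. The pseudoreceptor gene Bambi was at 272, 385 and 441 in pRb-deficient and 236, 249 and 244 in pRb-expressing cultures. Its groups did not overlap, but the log2 fold change of 0.56 did not pass (adjusted p = 0.0609). It was 0.76 and passed without pRb-deficient replicate 1 (adjusted p = 0.00531), but did not pass without any other array (adjusted p = 0.123 to 0.171).

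Of the 4 latent TGF-beta binding protein genes, 3 (75%) were higher in pRb-deficient cultures, against 18.5% of all genes. Ltbp1 had 7590.0, 8163 and 8072 in pRb-deficient and 3092, 2960.4 and 2855 in pRb-expressing cultures (log2 fold change 1.42, SE 0.06, adjusted p = 1.46e-05). Ltbp2, a family member that associates with elastic fibres and is known not to bind latent TGF-beta, was at 1572, 1156 and 1272 in pRb-deficient and 97.4, 67 and 100.2 in pRb-expressing cultures. It had the largest change of this family (log2 fold change 3.93, SE 0.2, adjusted p = 2.22e-05). Ltbp3, which binds latent TGF-beta and is known from mutant mice for a part in bone growth, was at 3082, 2699 and 2601 in pRb-deficient and 1332, 1221 and 1493 in pRb-expressing cultures (log2 fold change 1.05, SE 0.1, adjusted p = 0.000304). The groups were apart for all of these, and the other probe sets of Ltbp1 (2.14 and 2.1) and Ltbp3 (1.09, 2.07 and 1.54) were higher too. Ltbp4 did not pass, with an interval of −0.4 to 0.32.

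**Figure D3:**
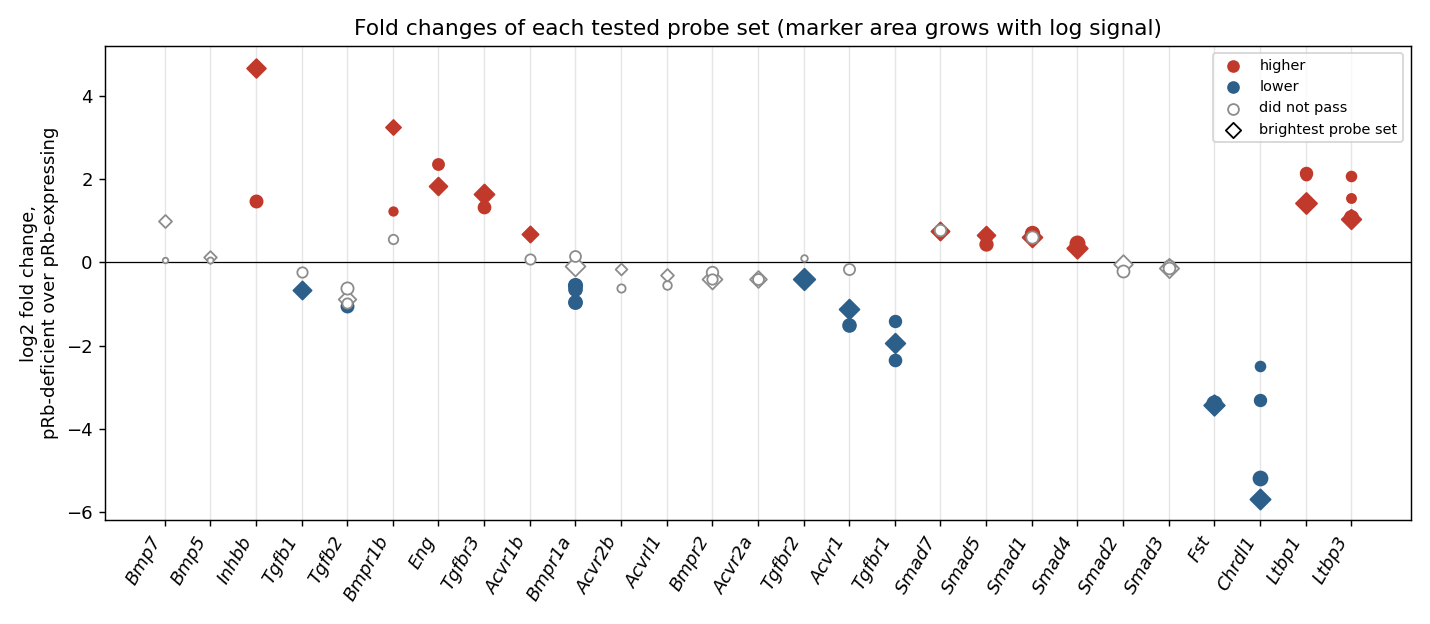
Log2 fold change, pRb-deficient over pRb-expressing, of each tested probe set of the members with more than 1; diamonds are the brightest probe sets, filled markers passed the test, and marker area grows with log signal. No gene has probe sets that passed in opposite directions, but Inhbb, Bmpr1b and Bmpr1a have probe sets of unequal change.

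The 44 genes had 95 probe sets, of which 88 were tested. Of these, 30 (34.1%) were higher without pRb, against 16.2% of all probe sets tested, and 20 (22.7%) were lower, against 18.8%. The remaining 38 were not altered at the threshold. Of 17 altered genes with more than 1 tested probe set, 10 had all of them called in the same direction, and 0 of the members had probe sets that passed in opposite directions. Probe sets of a gene thus differed in the size of the change. With the mean of all probe sets, the log2 fold change was 3.08 for Inhbb, 1.68 for Bmpr1b and −4.17 for Chrdl1. The median log2 fold change of the other genes on the members' chromosomes lay between −0.39 and 0.15, and after its subtraction all 24 altered members kept their sign. For 14 of the 24, the median was no larger than the SE of the change. The others moved by more than their SE, among them Tgfb1 (−0.67 to −0.41) and Smad4 (0.35 to 0.23).

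Further genes of the pathways were counted by role from lists that hold no member. Of 13 other ligand genes tested, 1 (7.69%) was lower, against 23.4% of all genes, and 12 did not pass. That gene, Lefty1, which encodes a Nodal antagonist, was at 56.5 ± 48.2 in pRb-deficient and 277 ± 32.6 in pRb-expressing cultures (SD), with replicates 1 and 3 of the pRb-deficient arrays below the floor (log2 fold change −2.5 after flooring, adjusted p = 0.00711). Of 7 other receptors and co-receptors, 1 (14.3%) was higher, where 18.5% of all genes were. This was the BMP co-receptor gene Rgmb, at 1308 ± 465 in pRb-deficient and 462 ± 5.92 in pRb-expressing cultures. Of 11 other secreted antagonists, 2 (18.2%) were higher and 4 (36.4%) lower, against the same 18.5% and 23.4% of all genes. Bmper, whose product binds BMPs and is related to chordin, was at 4258 ± 1320 in pRb-deficient and 213 ± 29.8 in pRb-expressing cultures (log2 fold change 4.28, adjusted p = 2.59e-05). Twsg1, a partner of chordin, was higher by 0.59 on the log2 scale. Dcn, which encodes the TGF-beta-binding proteoglycan decorin, was at 1120 ± 193 in pRb-deficient and 4165 ± 289 in pRb-expressing cultures (log2 fold change −1.91, adjusted p = 7.48e-05), and Fstl1, a follistatin relative, was lower by a small amount (−0.24, adjusted p = 0.0472).

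Among 12 other genes of TGF-beta latency and activation, 3 (25%) were higher and 5 (41.7%) lower, against 18.5% and 23.4% of all genes. Itgb8, a subunit of the integrin that releases TGF-beta from its latent complex, was at 951 ± 226 in pRb-deficient and 56.2 ± 14.4 in pRb-expressing cultures (log2 fold change 4.09, adjusted p = 5.25e-05). Thbs1, whose product thrombospondin 1 can activate latent TGF-beta, was at 13661 ± 1240 in pRb-deficient and 6114 ± 29 in pRb-expressing cultures. The matrix genes Fbn2 (fibrillin 2) and Emilin1 were lower, with log2 fold changes of −2.93 and −0.69. Of 17 genes of Smad cofactors and Smad degradation, 10 were higher, 1 (Tob1) was lower and 6 were not past the threshold, and 58.8% were thus higher where 18.5% of all genes were. The changes were mostly small, with a median log2 fold change of 0.43. Nedd4l, a ubiquitin ligase that acts on activated Smad2 and Smad3, was at 1419 ± 118 in pRb-deficient and 295 ± 28.1 in pRb-expressing cultures (log2 fold change 2.27, adjusted p = 1.68e-05). Ppm1a, a Smad phosphatase, was higher by 0.71. The gene that was lower was Tob1, an antiproliferative inhibitor of BMP signalling in osteoblasts, at 1345 ± 75.3 in pRb-deficient and 4376 ± 307 in pRb-expressing cultures (log2 fold change −1.7, adjusted p = 1.54e-05).

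Genes known to respond to the pathways were also counted. Whether their changes here were responses to the pathways was not tested. Of 13 BMP response genes tested, 2 (15.4%) were higher and 6 (46.2%) lower, where 18.5% of all genes were higher and 23.4% lower. Msx2, a homeobox gene of the developing skull, was at 2048 ± 219 in pRb-deficient and 176 ± 51.8 in pRb-expressing cultures (log2 fold change 3.58, adjusted p = 5.7e-05), and Msx1 was higher by 0.33. Dlx5, a homeobox gene that promotes osteoblast differentiation, was at 667 ± 159 in pRb-deficient and 2827 ± 114 in pRb-expressing cultures (log2 fold change −2.11, adjusted p = 0.000115). Atoh8 was below the floor on all pRb-deficient arrays and at least 7.81-fold lower there. Of 19 TGF-beta response genes tested, 4 (21.1%) were higher and 9 (47.4%) lower. Cdkn2b, which encodes the cell cycle inhibitor p15, had 4722, 4254 and 3146 in pRb-deficient and 14.5, 8.8 and 13.3 in pRb-expressing cultures and was at least 124-fold higher (adjusted p = 1.58e-06). Cdkn1a, which encodes the cell cycle inhibitor p21, was at 1586 ± 258 in pRb-deficient and 6877 ± 414 in pRb-expressing cultures (log2 fold change −2.13, adjusted p = 3.21e-05). Tgfbi was higher (4.58) and the transcription factor gene Bhlhe40 lower (−0.83). The osteoblast marker list shares Alpl and Sp7 with the BMP response genes and Col1a1 and Col1a2 with the TGF-beta response genes, and all of these were lower. The smooth muscle list shares Tagln, which was higher at 0.98, and Acta2, which did not pass at −0.24, with the TGF-beta response genes.

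**Figure D4:**
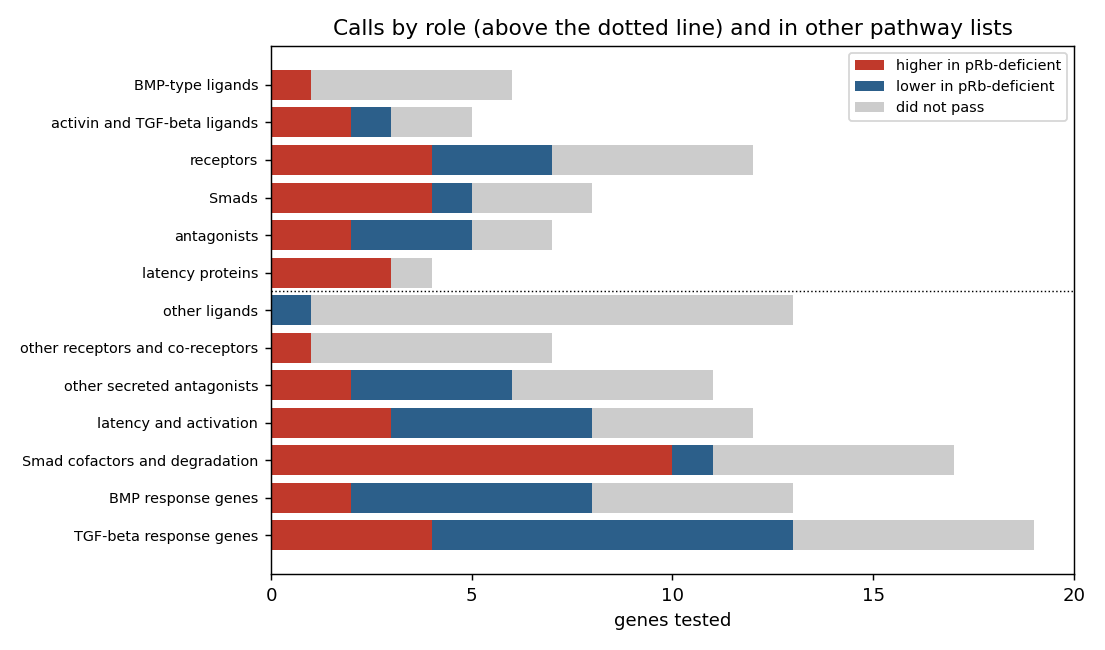
Number of tested genes called higher without pRb, called lower without pRb, or not called, by role for the 42 members (above the dotted line) and for the other pathway lists (below it). The list of Smad cofactors and degradation has 10 of 17 genes higher, whereas the TGF-beta response genes have 4 of 19 higher and 9 lower. Over all genes tested, 18.5% were higher and 23.4% lower.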

How the data were processed

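Biotin-labeled RNA from 3 pRb-deficient and 3 pRb-expressing cultures was hybridized to 6 arrays. The authors brought every array to a trimmed mean of 500 in Affymetrix Microarray 5.0 software, according to their methods. Affymetrix Expression Console 1.1 and MAS5 stand in the submitters' processing notes. Intensities deposited by the authors are linear MAS5 signals, without detection calls or counts, so that the number of arrays limits the precision. The trimmed mean of 500 was checked on each array.

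Of 45101 probe sets, 64 controls and 6610 at or below 32 on all arrays were left out, and 38427 were tested. After flooring at 32 and log2 transformation, limma 3.58.1 under R 4.3.3 was used (lmFit, then eBayes with trend), with group as the only term. Two-sided p-values received the Benjamini-Hochberg adjustment over the 38427 probe sets. Where all arrays of the lower group were at or below the floor, a fold is a lower bound on the ratio of geometric means ("at least"). The steps were tested on simulated data. The methods' rank test cannot give a p below 0.1 with 3 arrays against 3 and was not used. The replicate numbers did not pair the arrays, and a fit with them as a block was an alternative. Results were also recomputed with a floor of 100 or none, with 32 added to each signal instead, with a minimum mean of 100, with quantile normalization, median centring, no trend, array quality weights, each array left out, the mean of a gene's probe sets and subtraction of chromosome medians.

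Annotation gave 1 symbol to 34945 probe sets, several to 932 and none to 9160, and 34741 of those with 1 could be matched to RefSeq (GRCm38.p6) by gene ID, used for chromosomes and promoters. The motif search used Python 3.11.15. The members and lists were chosen with earlier results of these data known. Members are described in full where they passed, the groups did not overlap and the higher group had a mean of at least 200. From each other pathway list, up to 2 genes higher and 2 lower with the lowest adjusted p are named, with the same minimum. Promoters are shown for up to 3 of the largest rises and 3 of the largest falls. Other genes named as markers, and those that lists share, were chosen after their values were seen.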

Additional observations from a re-analysis of the deposited data

How the results depend on the processing

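Over 16 alternative settings with a test, 15 to 19 members were higher and 8 to 12 lower in pRb-deficient cultures, against 16 and 8 as reported, and no altered member changed direction. The highest counts, 19 and 12, came with array quality weights. That setting gave pRb-deficient replicate 2 a weight of 6.75, against 0.364 and 0.44 for replicates 1 and 3, and so rests largely on 1 array of that group. Of the 24 altered members, 22 passed under every setting. Acvr1b did not pass with the mean of its probe sets (adjusted p = 0.0964), with the replicate block (0.0601) or without any 1 array except pRb-deficient replicate 3 (0.0518 to 0.113), and Tgfbr2 did not pass after median centring (0.0568). The cause was not tested. Of the 18 members that did not pass, 8 passed under at least 1 setting, most often Tgfb2 (8 settings), Bmp4 (7), Bmpr2 (6) and Bambi (6). With the replicate number as a block, 12367 probe sets were altered against 13433, and 16 members were higher and 10 lower. After removal of group means, same-numbered arrays had correlations of 0.0229, −0.0338 and 0.057, and arrays 1 and 2 of each group correlated best with another number. Over all probe sets, the count of altered ones lay between 10571 (without pRb-deficient replicate 2) and 19329 (array quality weights).

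The folds of genes below the floor in a group depended on that floor. The log2 fold change of Bmp2 was 2.19 with a floor of 100 and 5.89 with none, and that of Bmpr1b was 1.6 and 4.33. The values used here hold no detection calls, and per array 24.4% to 26.6% of probe sets lay no higher than 32. For members near that level the intervals are wide, as for Acvr2b (−0.9 to 0.56).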

Other observations

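The pRb-deficient arrays did not rank alike over the pathway genes. Of the 42 members tested, replicate 3 had the lowest of the 3 pRb-deficient signals for 25, replicate 2 for 10 and replicate 1 for 7. Over all 16308 genes tested, these shares were 38.6%, 26.4% and 35.0%. Replicate 1 was the highest of the 3 for 26 members, and for 40.6% of all genes. Grem1, Nbl1, Chrdl1, Smad6 and Bmp7 are among the members with their lowest pRb-deficient signal on replicate 3.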
